A study of Mus musculus with 37 samples.

Results

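Imprinted genes are transcribed mainly from the copy inherited from one parent, and many of them set growth before and after birth. The 8 described here, *H19*, *Igf2*, *Meg3*, *Dlk1*, *Peg3*, *Plagl1*, *Cdkn1c* and *Grb10*, were chosen by name from the 24657 gene symbols of a brown adipose tissue (BAT) array table, and the probe set with the highest mean over the BXD strains stood for each gene. The tissue came from 35 BXD strains, which are inbred lines bred from crosses of C57BL/6J and DBA/2J, and from those 2 parental strains. All mice were males that ate chow for life, and they were sacrificed at 29 weeks after a night without food. Each strain gave 1 array of RNA combined from about 5 animals, so a difference between strains holds array error, dissection and genotype together. Both gene copies of an inbred strain are alike in sequence, and the allele in use could not be read from these arrays.

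Most of these genes quiet down after birth in the tissues where they act, and they meet in a few pathways. *Igf2* encodes a growth factor that signals through the insulin and IGF1 receptors, and *Grb10* encodes an adaptor that restrains both receptors. *Dlk1* encodes a membrane protein of fat precursors, also called preadipocyte factor, that holds back their differentiation, and *Cdkn1c* encodes the cell cycle inhibitor p57. *Plagl1* and *Peg3* encode zinc finger proteins of the nucleus, while *H19* and *Meg3* are long noncoding RNAs that lie next to *Igf2* and *Dlk1* and are expressed from the opposite parental copy.

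In the RefSeq order of the mouse genome, *Peg3*, *H19*, *Igf2* and *Cdkn1c* lie on chromosome 7, *Plagl1* on chromosome 10, *Grb10* on chromosome 11 and the neighbors *Dlk1* and *Meg3* on chromosome 12. RefSeq promoter windows of the assembly GRCm38.p6, from 250 bases before a transcript start to 50 bases after it, were at hand for 6 of the 8 genes, with 11 windows in all. Of these windows, 9 held at least as many CpG pairs as the median window, which had 7 among 32851. *H19* and *Cdkn1c* are named only. Windows are shown for the pairs *Meg3* with *Dlk1* and *Peg3* with *Plagl1*, which had the highest correlations across strains below. Capitals mark TGACGTCA, the cAMP response element, TATAAA on either strand, the TATA box, and GGGGCCCC, letters that the PLAGL1 protein is known to bind. The first and the last of these motifs read the same on both strands.
*Meg3* (chr12:109540746-109541045, plus strand): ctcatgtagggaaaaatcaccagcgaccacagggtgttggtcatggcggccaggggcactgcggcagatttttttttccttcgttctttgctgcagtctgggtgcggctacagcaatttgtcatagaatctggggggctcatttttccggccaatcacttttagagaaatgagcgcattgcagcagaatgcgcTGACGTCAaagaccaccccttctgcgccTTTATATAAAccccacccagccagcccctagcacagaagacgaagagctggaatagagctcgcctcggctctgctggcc
*Dlk1* (chr12:109452573-109452872, plus strand): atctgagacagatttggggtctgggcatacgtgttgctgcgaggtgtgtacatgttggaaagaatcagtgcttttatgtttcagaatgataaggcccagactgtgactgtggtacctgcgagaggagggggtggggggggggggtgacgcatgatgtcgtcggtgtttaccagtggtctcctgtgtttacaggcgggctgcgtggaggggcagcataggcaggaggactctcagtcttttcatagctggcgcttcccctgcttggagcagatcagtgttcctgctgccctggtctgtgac
*Peg3* (chr7:6730370-6730669, minus strand): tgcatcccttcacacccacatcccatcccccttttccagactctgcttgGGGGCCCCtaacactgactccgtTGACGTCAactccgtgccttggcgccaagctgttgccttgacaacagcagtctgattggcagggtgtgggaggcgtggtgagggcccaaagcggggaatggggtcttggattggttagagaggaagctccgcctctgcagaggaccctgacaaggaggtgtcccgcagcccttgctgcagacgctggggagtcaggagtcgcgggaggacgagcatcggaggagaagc
*Plagl1* (chr10:13090582-13090881, plus strand): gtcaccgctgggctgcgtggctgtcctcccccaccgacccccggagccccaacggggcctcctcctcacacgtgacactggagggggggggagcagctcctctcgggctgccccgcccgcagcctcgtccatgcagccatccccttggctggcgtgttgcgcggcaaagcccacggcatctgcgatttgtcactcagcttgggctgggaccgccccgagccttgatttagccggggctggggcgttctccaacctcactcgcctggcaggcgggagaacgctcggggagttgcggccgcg
A second RefSeq window of *Meg3* (chr12:109545148-109545447) held 1 CpG pair and none of these motifs. The *Meg3* window shown held a cAMP response element at position -57 from its start and 2 overlapping TATA matches, at -29 and -25. The *Peg3* window held GGGGCCCC at -201 and a cAMP response element at -178. Neither the *Dlk1* nor the *Plagl1* window held any of these letters. Over all windows, the cAMP response element was found in 1.79%, the TATA box in 13.6% and GGGGCCCC in 1.08%. These are matches of letters and not measured binding.

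Values are in rescaled units. On every array, the authors had set the mean to 8 and the SD to 2. The background came from 1128 probe sets of olfactory receptors, genes of the nose that fat is not known to use. The middle one of their means was 6.00, and the 95th percentile, 7.94, was the limit over which a gene was taken as above background. All 8 imprinted genes had means over this limit, while 4 of them, *H19*, *Igf2*, *Peg3* and *Grb10*, also exceeded the 99th percentile of 8.82. Of all 41155 probe sets analysed, 19436 had means over the limit, though these were not picked as the highest of a gene. With the mean of all probe sets of a gene, 6 of the 8 were over the limit, since *Plagl1* and *Meg3* have dimmer probe sets. The tissue label was checked with *Ucp1*, the uncoupling protein of brown fat, which lay between 14.82 and 15.69 in every BXD strain. *Acta1*, the actin of skeletal muscle, ran from 12.05 in BXD65 to 15.31 in BXD97, and the 15 genes of a muscle list had a mean level from 9.72 to 13.42 in the same strains. *Alb*, the albumin of liver, stood at 14.96 in BXD70 and 13.93 in DBA/2J against a BXD median of 7.85. In bulk tissue, fewer cells of a type and less RNA per cell cannot be told apart.

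*H19* had the largest SD among the 8 genes, with a BXD mean of 9.09 ± 0.66 (SD, n = 35). It was lowest in BXD65 at 7.42, had a median of 9.19 and was highest in BXD56 at 10.17. BXD65 stood alone under the background limit, 0.648 below the next strain, and the other 34 strains were above it. The range of 2.74 units compares with a median range of 0.828 and a 95th percentile of 2.07 among the 19436 probe sets above background. Without BXD65 the range of *H19* was 2.10, less than the 2.60 of *Peg3*. From the 5th to the 95th percentile *H19* also spanned less, 1.94 against 2.12 units, as it did without the highest and the lowest strain, 1.98 against 2.25. C57BL/6J had 9.59 and DBA/2J 9.19, both inside the BXD range, with 9 strains above and 18 below both parents.

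*Igf2*, the growth factor gene beside it, was among the steadier transcripts. Its BXD mean was 8.90 ± 0.16 (SD, n = 35), from 8.59 in BXD68 over a median of 8.90 to 9.18 in BXD65. All 35 strains were above the limit, and 30.5% of the probe sets above background had a smaller SD. The strain with the least *H19*, BXD65, was thus the one with the most *Igf2*, but only at 9.175 against 9.165 in BXD96. On single arrays these 2 values cannot be told apart. BXD65 also had the lowest level of the muscle list. A probe set for *Mir483*, a microRNA gene inside *Igf2*, had a mean of 9.96 ± 0.25 (SD, n = 35) and an r of 0.23 with *Igf2*, with an adjusted p of 0.897 in limma. Its mature sequences in RefSeq, on the minus strand of chr7, are given because its covariation with the host gene did not pass the test, with the seed, bases 2 to 8, in capitals.
mmu-miR-483-5p (chr7:142654968-142654989): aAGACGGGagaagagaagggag
mmu-miR-483-3p (chr7:142654932-142654952): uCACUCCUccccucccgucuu
The 2 arms carry different seeds. An array of total RNA does not tell the mature microRNA from its precursor.

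*Peg3* was the furthest over the olfactory receptors, above all 1128 of them in its mean of 11.67 ± 0.59 (SD, n = 35). Values ran from 10.44 in BXD68 over a median of 11.70 to 13.04 in BXD43, a range of 2.60 units. The leading strains were BXD62 at 12.77, BXD96 at 12.84 and BXD43, and the next strain, BXD80, was at 12.29. C57BL/6J had 10.60 and DBA/2J 11.24, and 28 of the 35 BXD strains lay above both parents. A second *Peg3* probe set, with a mean of 9.58, followed the first over the strains with an r of 0.96 and a rho of 0.94.

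*Plagl1* had a mean of 8.66 ± 0.62 (SD, n = 35), from 7.54 in BXD64 over a median of 8.87 to 9.39 in BXD50. Only 27 of the 35 strains were above background, C57BL/6J at 7.87 was below it, and DBA/2J at 8.65 was above it. The parental gap of 0.788 units was the widest among the 8 genes and lay at the 95.2nd percentile of absolute parental differences over all probe sets, whose 95th percentile was 0.77. The widest step in the ordered BXD values, 0.34 units, separated 10 strains at or under 8.12 from 25 strains at or over 8.46. This step was smaller than the SD over strains, and 21 strains were above both parents while 7 were below both. The other *Plagl1* probe set, with a mean of 4.75, was below background and had an r of 0.38 with the first.

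**Figure D1:**
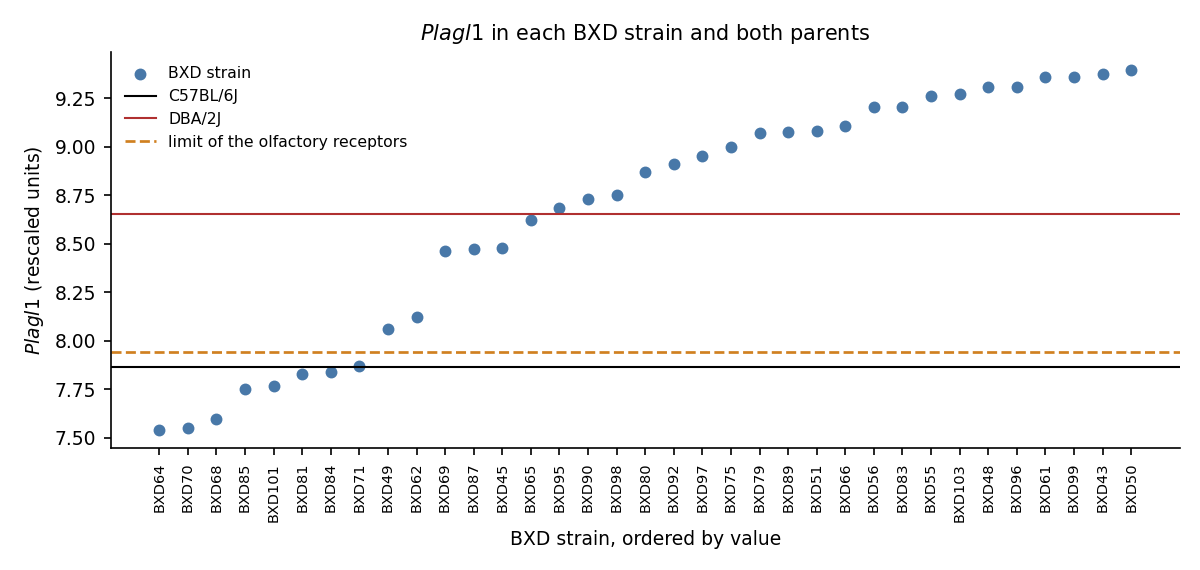
*Plagl1* in each of the 35 BXD strains, ordered by value in rescaled units, with 1 array per strain and no replicate error. The lines give C57BL/6J at 7.87, DBA/2J at 8.65 and the background limit at 7.94, and the widest step lies between 8.12 and 8.46.

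The remaining 4 genes had ranges between that of *Igf2* and that of *Plagl1*, from 0.797 to 1.22 units. *Meg3* had a mean of 8.72 ± 0.26 (SD, n = 35), from 8.12 in BXD89 over a median of 8.68 to 9.34 in BXD65, with all strains above background. *Dlk1*, closest to the background, had a mean of 8.06 ± 0.21 (SD, n = 35), from 7.67 in BXD89 over a median of 8.01 to 8.79 in BXD55. For *Dlk1*, 25 of 35 strains exceeded the limit, and BXD55 alone stood 0.433 over the next strain, so that the range of 1.12 fell to 0.687 without it. *Cdkn1c* had a mean of 8.68 ± 0.24 (SD, n = 35), from 8.11 in BXD103 over a median of 8.70 to 9.26 in BXD55. *Grb10* had a mean of 9.25 ± 0.20 (SD, n = 35), from 8.83 in BXD87 over a median of 9.29 to 9.62 in BXD61. Both were above background in all 35 strains. By SD, *H19* ranked at the 98.1st, *Plagl1* at the 97.7th and *Peg3* at the 97.4th percentile of the probe sets above background, and the other 5 genes ranked from the 30.5th to the 72.3rd.

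**Figure D2:**
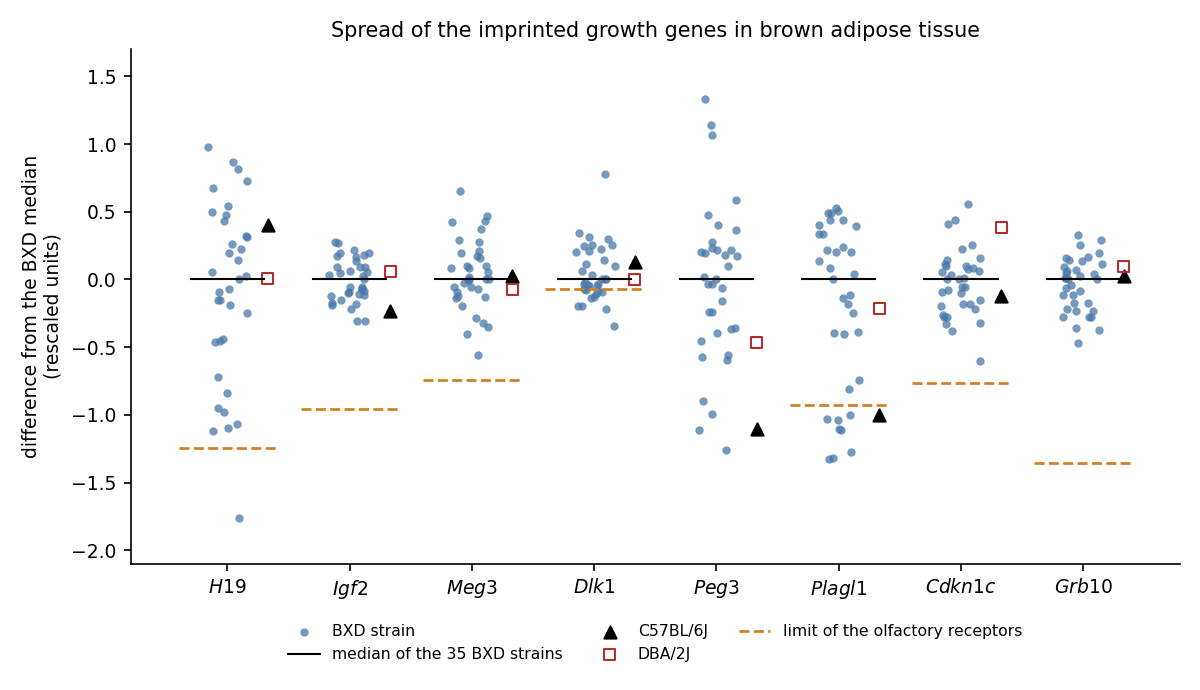
Values of the 8 genes as differences from the median of the 35 BXD strains, in rescaled units, with 1 point per strain, triangles for C57BL/6J, squares for DBA/2J and dashed lines for the olfactory receptor limit (off the axis for *Peg3*). *H19*, *Peg3* and *Plagl1* spread over 2.74, 2.60 and 1.86 units, and *Igf2* over 0.585.

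A few strains were extreme for several of the genes. BXD90 was among the lowest 3 strains for *H19*, *Meg3*, *Dlk1* and *Grb10*, and BXD89 for *Meg3*, *Dlk1* and *Grb10*. BXD68 was among the lowest 3 for *Igf2*, *Peg3* and *Plagl1*. On the other side, BXD96 was among the highest 3 for *Igf2*, *Peg3*, *Cdkn1c* and *Grb10*, and BXD61 for *H19*, *Dlk1* and *Grb10*. No test was made of these counts.

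Covariation was tested with limma, with 1 gene at a time as the covariate and Benjamini-Hochberg adjustment over all other probe sets. Of 28 pairs among the 8 genes, 0 had an adjusted p under 0.05 in both of their fits, and 5 had an unadjusted p under 0.05 in both. In single fits, from 2467 (*Igf2*) to 5417 (*Meg3*) of the 41154 other probe sets had an unadjusted p under 0.05. The share of all 41154 other probe sets called in a fit was 1.66% for *H19*, 0.697% for *Meg3*, 1.21% for *Grb10*, 0.267% for *Peg3*, 0.0194% for *Plagl1* and 0.00243% for *Dlk1*. For *Dlk1* this is 1 probe set, with 15 called without BXD55, 0 without BXD49, BXD61, BXD62, BXD89 or BXD90, and 10 with ranks of the covariate. The share was 0.0% for *Igf2* and 0.0% for *Cdkn1c*, where 2467 and 4125 probe sets had an unadjusted p under 0.05. Pearson's r was under 0.3 in size for 22 of the 28 pairs, with a median of 0.0729.

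**Figure D3:**
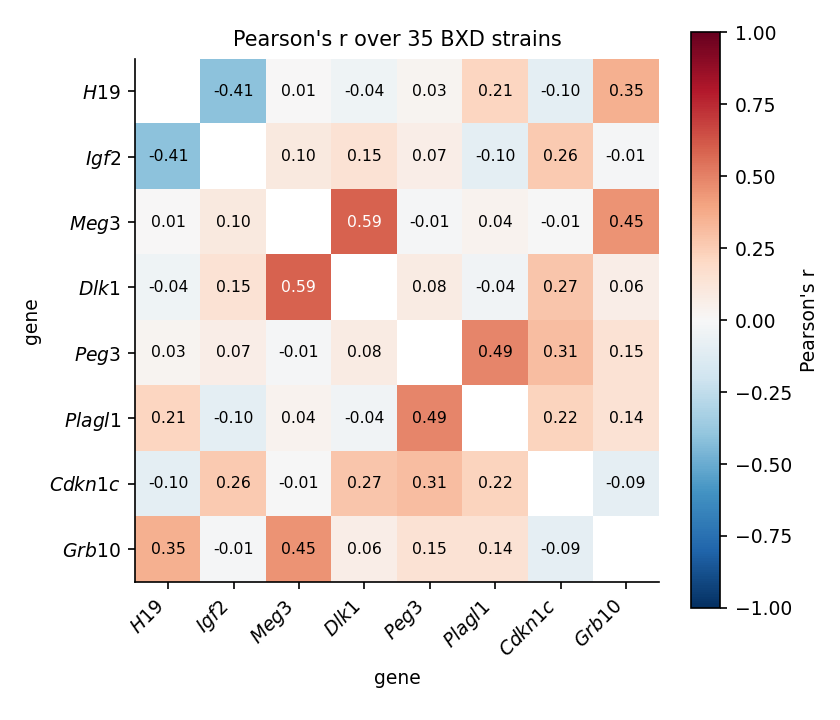
Pearson's r for each pair of the 8 genes over the 35 BXD strains, from blue for negative to red for positive values. The pairs *Meg3* with *Dlk1* (0.59), *Peg3* with *Plagl1* (0.49) and *Meg3* with *Grb10* (0.45) have the highest r, and *H19* with *Igf2* (-0.41) has the lowest.

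*Meg3* and *Dlk1*, neighbors on chromosome 12 that are read from opposite parental copies, were the pair with the highest correlation. Their r was 0.59 (two-sided permutation p = 0.00015) and their rho 0.67 (permutation p = 3e-05) over 35 strains. The adjusted p was 0.0421 in the limma fit on *Meg3* and 0.154 in the fit on *Dlk1*. Without the 2 strains farthest from the median of *Meg3*, r was 0.53, and without those farthest for *Dlk1* it was 0.70. Leaving out BXD55, the strain with the most *Dlk1*, gave an r of 0.71 and a call in both fits. *Rian*, another noncoding RNA of this imprinted cluster, was the transcript most like *Meg3*, with an r of 0.79 and an adjusted p of 3.90e-04. It was listed at a mean of 7.95, just over the background limit, and 19 of 35 strains were above it. Of the other genes of the cluster, *Rtl1*, a gene derived from a retrotransposon, was above background in all 35 strains with a mean of 8.39. It had an r of 0.26 with *Meg3*. *Mirg*, *Begain* and *Dio3*, the deiodinase that inactivates thyroid hormone, were below background in every strain and had an r of 0.36, -0.13 and 0.40. None of these 4 genes was called, with adjusted p values from 0.244 to 0.799 in limma. The other 2 *Meg3* probe sets, with means below the limit, had an r of 0.17 and 0.44 with the one used.

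*Peg3* and *Plagl1*, both zinc finger genes expressed from the paternal copy, had an r of 0.49 (permutation p = 0.00315) and a rho of 0.61 (permutation p = 0.00019). The limma fits gave adjusted p values of 0.195 and 0.579. *H19* and *Igf2* had an r of -0.41 (permutation p = 0.0142) and a rho of -0.35 (permutation p = 0.0384), with adjusted p values of 0.321 and 0.764. With the muscle list held constant, their partial r was -0.12. Among the 7 strains with the least muscle signal their r was -0.35, and among the other 28 it was -0.31. This split did not hold muscle constant, since the muscle signal still varied within each part. There, *H19* had an r of 0.77 and 0.69 with the muscle list. *Meg3* and *Grb10* had an r of 0.45 (permutation p = 0.00735) and a rho of 0.44 (permutation p = 0.0089), with adjusted p values of 0.165 and 0.171. These 3 pairs passed in neither of their fits after adjustment, and *Meg3* with *Dlk1* passed only in the fit on *Meg3*.

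*H19* followed the skeletal muscle genes. Its r with the mean z-score of the 15 muscle genes was 0.89 and its rho 0.82, and the permutation p of 1e-05 for each is the smallest that 100000 permutations can give. In limma the adjusted p was 3.15e-11, and 1.80% of 41138 probe sets were called in that fit. Without BXD65 and BXD95, the strains farthest from the median of the list, r was 0.85. Among the 7 strains with the least muscle signal r was 0.77, and among the other 28 it was 0.69. *H19* was the only one of the 8 called with this list, and *Igf2*, with an r of -0.40 and an adjusted p of 0.302, had the other unadjusted p under 0.05. Among the 41138 probe sets of that fit, 4529 had an unadjusted p under 0.05.

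The transcripts most like *H19* were muscle genes too. *Ankrd2*, a stretch-responsive protein of muscle fibers, had an r of 0.92, *Myh2*, a fast myosin heavy chain, 0.91, and *Xirp2*, an actin-binding protein of striated muscle, 0.91, each with an adjusted p of 1.85e-11. All 15 muscle list genes were called in the fit on *H19*, with a median r of 0.87 against -0.02 over all probe sets. *Myf6*, a regulator of muscle differentiation, was called with an r of 0.88. Of 682 probe sets called, 584 rose with *H19* and 98 fell. With the muscle list as a second covariate, 0 probe sets were called in the limma fit on *H19*. *Nctc1*, a noncoding RNA gene next to *H19* that was looked up after its values were seen, had an r of 0.76 with *H19* (adjusted p of 9.89e-06) and 0.80 with the muscle list.

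**Figure D4:**
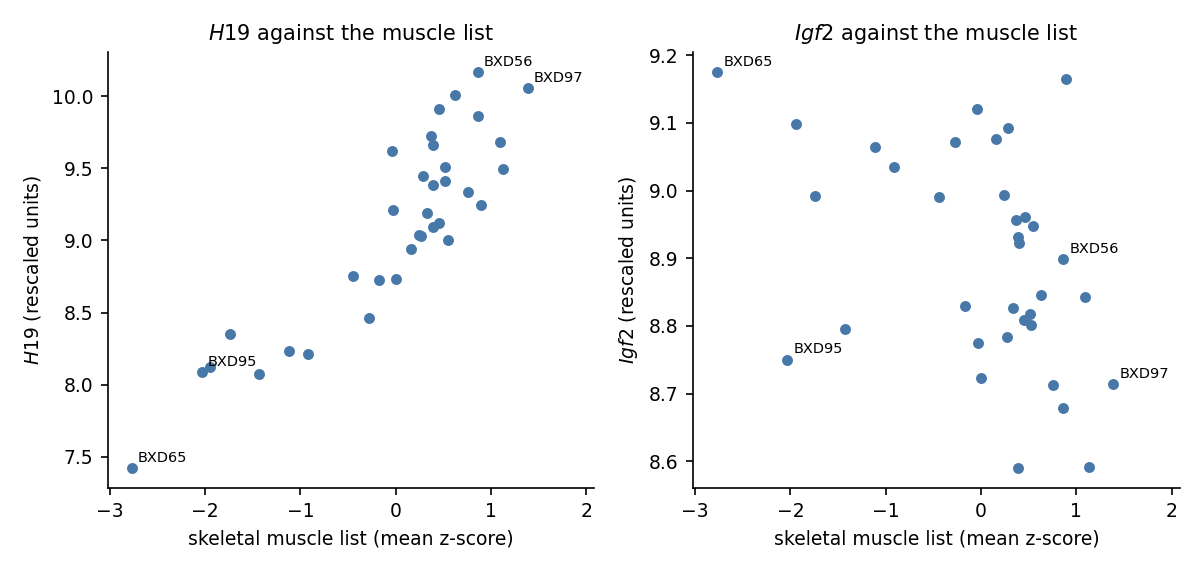
*H19* (left) and *Igf2* (right) in rescaled units against the mean z-score of 15 skeletal muscle genes, with 1 point for each of 35 BXD strains. *H19* climbs with the list over the whole axis (r = 0.89), from 7.42 in BXD65, while *Igf2* has an r of -0.40.

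*Grb10* and *Meg3* went with genes of the stroma, the connective tissue cells between adipocytes, though not with those alone. The list of 12 stromal genes, all above background, had mean levels from 9.85 in BXD48 to 11.09 in BXD61, and 3.10% of 41141 probe sets were called with it. *Grb10* had an r of 0.73 and a rho of 0.71 with the list, with a permutation p of 1e-05 for each and an adjusted p of 2.42e-04. *Meg3* had an r of 0.53 (permutation p = 0.00124) and a rho of 0.51 (permutation p = 0.00198), with an adjusted p of 0.0339. Without BXD48 and BXD89, the strains farthest from the median of the list, r was 0.69 for *Grb10* and 0.43 for *Meg3*, and the adjusted p of *Meg3* was 0.183. The call of *Meg3* was also lost without BXD43, BXD48, BXD61, BXD69, BXD89, BXD92 or BXD97 alone, with adjusted p values from 0.0557 to 0.0935. *H19* was called without BXD43 or BXD65.

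Within the fit on *Grb10*, 8 of the 12 stromal genes were called, with a median r of 0.59 against -0.01 over all probe sets. Macrophage genes moved with it as well, 4 of 5 being called, and the macrophage list ran from 9.11 in BXD48 to 10.91 in BXD61. *Grb10* had an r of 0.68 with the macrophage list, and an r of 0.58 with a list of 8 proliferation genes, of which 3 had means above background and 0 were called in the limma fit on *Grb10*. *Meg3* had a higher r with the proliferation list, 0.59 (rho of 0.65), than with the stromal list, and 0.51 with mural and 0.49 with macrophage genes. In the fit on *Meg3*, 1 of the 8 proliferation genes and 0 of the 7 mural genes were called. Proliferation levels ran only from 7.45 in BXD99 to 7.96 in BXD80, and mural levels from 10.50 in BXD43 to 11.01 in BXD85. The part of these cell types in the result was not tested. Of 22 genes of the IGF pathway, 2 (9.09%, beside 1.21% of all probe sets) were called with *Grb10*, both upward, with a median r of 0.10. These were *Igf1*, the growth factor that shares its receptor with *Igf2*, with an r of 0.60 (adjusted p of 0.0194), and *Igfbp5*, which binds both factors, with 0.59 (adjusted p of 0.0182). Both were called with the stromal list too, *Igfbp5* with an r of 0.88 and *Igf1* with 0.53, and so were *Igfbp6* (0.74) and *Igfbp7* (0.52). With *H19*, 2 of the 22 were called (9.09%, beside 1.66% of all probe sets). These were *Igfbp6*, with an r of 0.60, and *Ghr*, the growth hormone receptor gene, with 0.58. *Igfbp6*, but not *Ghr*, was called with the muscle list too, with an r of 0.55. With *Meg3*, 1 of the 22 was called (4.55%, beside 0.697%), *Igfbp7* with an r of 0.63. *Notch3*, a receptor of the Notch pathway that DLK1 is known to touch, was also called with *Meg3*, with an r of 0.59. It was 1 of 11 genes of a Notch list (9.09%, beside 0.697%). Without BXD61, the strain with the most *Grb10*, 141 probe sets were called in place of 496. *Lass6*, a ceramide synthase, *Abca9*, a lipid transporter, and *Emp3*, a membrane protein, were the most alike, with an r of 0.78, 0.77 and 0.77. *Rhoj*, a small GTPase of endothelial cells, and *Tgfb1i1*, a protein of focal adhesions, followed *Rian* in likeness to *Meg3*, with an r of 0.74 and 0.73.

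**Figure D5:**
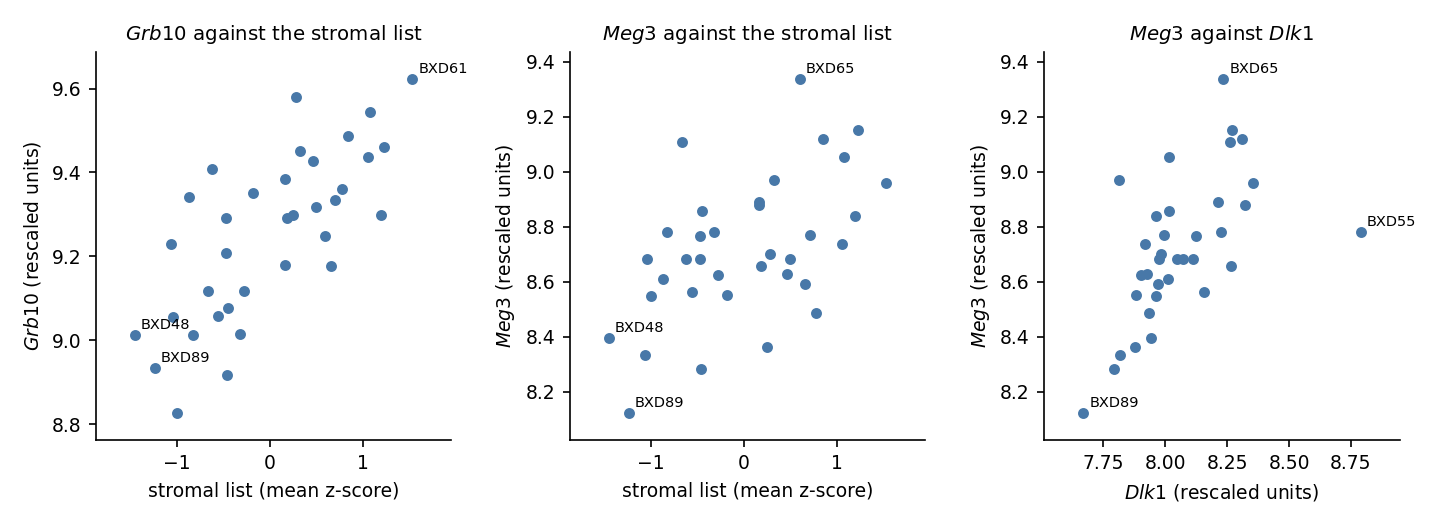
*Grb10* and *Meg3* in rescaled units against the mean z-score of 12 stromal genes, and *Meg3* against *Dlk1*, with 1 point for each of 35 BXD strains. Pearson's r is 0.73, 0.53 and 0.59 from left to right, and BXD55 stands apart on the axis of *Dlk1* at 8.79.

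None of the 8 genes was called in the limma fit on 12 brown fat genes, in which 3.10% of 41140 probe sets were called. An unadjusted p under 0.05 was found for 3 of the 8 and for 6771 of the 41140 probe sets. *Grb10* had an r of -0.51 (adjusted p of 0.0530), *H19* -0.47 (0.0667) and *Cdkn1c* 0.43 (0.129). With the muscle list held constant, the partial r was -0.46 for *Grb10*, -0.15 for *H19* and 0.47 for *Cdkn1c*. *Grb10* was called without BXD75, BXD81, BXD89, BXD92, BXD101 or BXD103, *H19* without BXD51 or BXD89, and *Cdkn1c* without BXD96. The limma fit on 9 white fat genes called 0.292% of 41146 probe sets and none of the 8. Only *H19* among the 8, with an r of 0.45 and an adjusted p of 0.137, had an unadjusted p under 0.05. Such a p was found for 5654 of the 41146 probe sets. The 120 probe sets behind the 0.292% became 617 without BXD70, the strain with liver transcripts, and 7 without BXD61. No probe set was called in the limma fit on *Ahr*, the receptor gene that the study follows, which is 0.0% of 41154. There, 1 of the 8 genes and 3388 of the 41154 probe sets had an unadjusted p under 0.05.

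*Plagl1* covaried with genes of its own chromosome, some of them close to it. The limma fit called 8 probe sets of 5 genes, and all 8 lie on chromosome 10, which holds 4.86% of the 24441 gene-named probe sets with a place in RefSeq. *Sf3b5*, a subunit of the splicing machinery, is the next protein-coding gene on one side and had an r of 0.70 (adjusted p of 0.0168). *Ltv1*, a factor for the making of ribosomes, is 2 protein-coding genes away on the other side and had an r of 0.82 (adjusted p of 4.95e-05). *Fuca2*, a fucosidase, is 4 genes away with an r of 0.68 (adjusted p of 0.0144). *Hivep2*, a zinc finger gene 8 genes away, ran the other way with an r of -0.71 (adjusted p of 0.00975), though its mean of 7.88 was below the background limit. The other 4 probe sets belong to *Syne1*, a protein of the nuclear envelope, with an r from -0.73 to -0.70. *Syne1* is not a close neighbor, since 35 protein-coding places separate it from *Plagl1*. With ranks of *Plagl1* as the covariate, 1 probe set was called in place of 8.

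*Ltv1* ran from 8.78 in BXD64, the strain with the least *Plagl1*, over a median of 9.45 to 9.91 in BXD43, and C57BL/6J had 9.14 against 9.62 in DBA/2J. *Fuca2* ran from 8.34 in BXD81 over 9.66 to 10.27 in BXD65, with 8.52 in C57BL/6J and 9.93 in DBA/2J. In both, as in *Plagl1*, DBA/2J was the higher parent. Of the transcripts with negative r, *Hivep2* and 1 *Syne1* probe set were lower in DBA/2J, at 7.76 against 8.18 and 9.02 against 9.72, while the other *Syne1* probe sets were higher in DBA/2J, at 9.11 against 8.71, 9.42 against 9.38 and 8.63 against 8.38. *Sf3b5* ran from 9.91 in BXD64 over 10.40 to 10.86 in BXD75, with 10.33 in each parent. With any 1 strain left out, r with *Plagl1* lay between 0.80 and 0.84 for *Ltv1*, between 0.65 and 0.71 for *Fuca2* and between 0.66 and 0.73 for *Sf3b5*. Among the 10 strains under the widest step in *Plagl1*, r was -0.27 for *Ltv1*, -0.48 for *Fuca2* and 0.58 for *Sf3b5*. Among the 25 strains over it, r was 0.42, -0.59 and -0.29. For *Hivep2* these values were 0.07 and -0.06, and for *Syne1* from -0.32 to 0.35 and from -0.23 to -0.003. Each side covers a narrower range of *Plagl1*, which by itself can shrink r. The lower 10 strains, from 7.54 to 8.12, also lie near the background limit of 7.94. These values therefore cannot show what the step adds to the calls, and its part in them was not tested. *Phactr2*, an imprinted gene 3 protein-coding places from *Plagl1*, was not called. Strain genotypes were not analysed here.

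*Peg3* went with the neighbor on 1 side, while the neighbor on the other side was below background. *Zim1*, the imprinted zinc finger gene next to it, had an r of 0.73 (adjusted p of 8.97e-04) and, like *Peg3*, its highest value in BXD43, at 10.39. *Usp29*, the next protein-coding gene on the other side, had an r of 0.23 and was not called. Its mean of 5.93 was below background, as was its value in every strain, so its r cannot show whether it covaries. The fit on *Peg3* called 110 probe sets, 51 upward and 59 downward, and 59, 61, 69 and 73 without BXD68, BXD101, BXD62 and BXD96. Of 96 called probe sets of other genes with a place in RefSeq, 6 lie on chromosome 7, which holds 8.72% of all placed gene-named probe sets. *Cyp4b1*, a cytochrome P450 of fatty acid metabolism, had an r of 0.76 (adjusted p of 2.21e-04), *Bfar*, a regulator of cell death, 0.77 (0.00116) and *Btg1*, a brake on cell division, 0.74 (0.00224). *Ndn*, an imprinted gene that restrains growth and adipocyte differentiation, fell as *Peg3* rose, with an r of -0.72 (adjusted p of 0.00137). *Slc2a4*, the insulin-responsive glucose transporter, and *Scd2*, a fatty acid desaturase, were named after their values were seen and fell with an r of -0.75 and -0.73, each with an adjusted p of 6.52e-04. *Scd2* ran from 10.61 in BXD103 over a median of 11.45 to 13.99 in BXD87, a strain among the lowest 3 for *Peg3*.

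Of 14 genes that lie in the imprinted domains of the 8, 7 had a mean above background, namely *Th*, *Kcnq1ot1*, *Rian*, *Rtl1*, *Zim1*, *Phactr2* and *Cobl*. The other 7, *Ins2*, *Phlda2*, *Mirg*, *Dio3*, *Begain*, *Usp29* and *Ddc*, were below the limit in every BXD strain. Over the whole table, 19436 of 41155 probe sets had a mean above the limit, a share similar to 7 of 14. Across 69 other imprinted genes found on the array, between 0 and 4 were called with any of the 8. With *H19*, 4 were called (5.8% of the list, beside 1.66% of all probe sets), all upward, namely *Cobl* (r of 0.76), *Slc38a4* (0.71), *Atp10a* (0.58) and *Asb4* (0.54), and the median r of the list was 0.04. The mean of *Asb4*, 7.40, was below background, and 2 of 35 strains were above the limit. *Cobl*, *Slc38a4* and *Asb4* were also called with the muscle list, to which *H19* is tied on the same arrays. With *Grb10*, 3 were called upward (4.35%, beside 1.21%), the matrix gene *Dcn* (r of 0.73), the receptor kinase gene *Axl* (0.67) and *Mest* (0.57), and each was called with the stromal list too. *Rian* and *Kcnq1*, a potassium channel gene, were called with *Meg3* (2.9%, beside 0.697%), and *Zim1* and *Ndn* with *Peg3* (2.9%, beside 0.267%). The mean z-score of the list had an r of 0.59 and a rho of 0.59 with *Meg3* (permutation p of 0.00018 and 0.00019), and *Rian* is among its genes. With *Igf2*, *Dlk1*, *Plagl1* and *Cdkn1c* as the limma covariate, 0 of the 69 were called.

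For *Dlk1*, *Zfp503*, a zinc finger gene, and *Il11ra2*, a receptor gene of interleukin 11, had an r of 0.65 and 0.63, each with an adjusted p of 0.154, and did not pass. For *Igf2*, *Hmgn1*, a nucleosome-binding protein, was the most alike with an r of 0.60 and an adjusted p of 0.764. For *Cdkn1c*, *Npy*, the neuropeptide of sympathetic nerves, was the most alike with an r of 0.64 and an adjusted p of 0.195. Close to *Igf2* and *Cdkn1c* on chromosome 7, *Ins2*, *Phlda2* and *Kcnq1ot1* were not called with either gene.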

How the data were processed

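BAT of 37 strains was measured with 1 Affymetrix array each, from evenly pooled RNA. The authors deposited 1 table of 41345 probe sets, made with Affymetrix Expression Console per the labels, whose values are a score: each array was rescaled to a mean of 8 and an SD of 2. The log base, the summary method and the genome build are not given in the sources used here. Arrays have no read depth, so their number and the background limit the precision. After 190 control probe sets were left out, 41155 were analysed. Covariation over 35 BXD strains was tested with limma 3.58.1 (lmFit and eBayes) in R 4.3.3 at an adjusted p under 0.05, and single pairs with 100000 two-sided permutations in Python 3.11.15 with numpy 2.4.6 and scipy 1.17.1. On simulated data for the fit on *Meg3*, 200 probe sets of 41155 were made to follow the covariate. At 0.5 SD per SD, 3 were recovered, with 0 false calls, and at 1 SD 186, with 11 false calls. The simulated noise was normal and independent between probe sets, which the measured values need not be. The false calls there therefore do not gauge those in the fits here.

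The planned tests assumed log2 values and were run on the rescaled values as deposited. The 8 genes and all lists were chosen with earlier results of these data known. Genes named are the 8 themselves, the 3 transcripts above background most like each by Pearson's r, genes of the same imprinted domains, genes called from the lists and the marker genes *Ucp1*, *Acta1* and *Alb*, and others are named as seen afterwards. The values of 1 transcript are not reported here. With 1 array per strain there are no replicates within a strain. Alternatives were other scalings, other limits, all probe sets of a gene, the parents included, BXD70 or any single strain left out, ranks, a filter on dim probe sets, the extreme strains left out and the muscle list as covariate. RefSeq of GRCm38.p6 gave gene order and sequences.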

Additional observations from a re-analysis of the deposited data

How the results depend on the processing

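Of 161 single values recomputed under the alternatives, 144 held (the sign and call of a tested value, or an untested value within 1 SD over strains) and 1 reversed: with the muscle list as covariate, the r of *H19* with the white fat list went from 0.45 to -0.0930. With any 1 strain left out, 613 of 630 single values held and 0 reversed. Both tallies count values that could not change. A range moves only when its highest or lowest strain is left out. Genes with 1 probe set keep their range under the mean of all probe sets. With ranks or the filter on dim probe sets, r was that of the main fit, so only the call could change. Above the 99th percentile of the olfactory receptors, 4 of the 8 genes remained. With the mean of all probe sets, 6 were above the 95th. The median range of the 8 genes, 1.19 units, was 0.786 from the 5th to the 95th percentile and 0.846 without the highest and the lowest strain. *Plagl1* was past the 95th percentile of parental differences as deposited, and with arrays centered on their median 0 of the 8 were. Pairs called in both fits numbered 1 (*Meg3* with *Dlk1*) with ranks of the covariate. With the brown fat list, 1 gene was called after centering on the median (*Grb10*) and 2 with only probe sets above background (*Grb10* and *H19*). With the stromal list, 1 gene (*Grb10*) was called with the mean of all probe sets and 1 without the 2 farthest strains. With 1 strain left out, the genes above background stayed at 8 and those called with the muscle list at 1, those with the white fat list and with *Ahr* at 0, while the pairs went from 0 to 1, the brown fat calls from 0 to 2, the stromal calls from 1 to 3 and the median range from 1.10 to 1.19. The number of probe sets called moved more. For *H19* it was 682 and 0 with the muscle list as covariate, and for *Plagl1* 8 and 1 with ranks. For *Meg3* it was 287, with 4 for the mean of all probe sets, 21 without the 2 farthest strains, 95 after centering on the median, 179 after quantile normalization and 654 with only probe sets above background, and it ran from 45 without BXD69 to 443 without BXD49, moving by over 1.5 times also without BXD43, BXD48, BXD61, BXD65, BXD79, BXD80, BXD87, BXD89, BXD90, BXD92, BXD97, BXD99 or BXD101. For *Grb10* it was 496, with 162 without the 2 farthest strains, 301 with the muscle list as covariate 766 with only probe sets above background and 292 to 307 without BXD69, BXD87, BXD89 or BXD97, and for *Peg3* 110, with 62 without the 2 farthest strains, 216 with only probe sets above background and 221 with the parents. For the white fat list it was 120, with 0 without the 2 farthest strains, 2 with the muscle list as covariate, 15 after centering on the median, 50 with ranks, 69 after quantile normalization, 335 with the parents and 592 with only probe sets above background. Without BXD48, BXD49, BXD61, BXD64, BXD66, BXD69, BXD79, BXD81, BXD90, BXD95, BXD96, BXD97 or BXD98 it was 7 to 71, and without BXD43, BXD70 or BXD83 236 to 617. For the brown fat list it was 1276, with 466 without the 2 farthest strains, 761 with the muscle list as covariate, 674 without BXD97 and 788 without BXD83, and for the stromal list 1274, with 787 without BXD61 and 816 without BXD97. The cause of these changes was not tested. No paired analysis was possible because each strain has 1 array. Depth does not apply to arrays, and *Dlk1* and the lower *Plagl1* values lie so close to background that small differences among them are not firm.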
